A study of Mus musculus with 10 samples.

Results

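Integrins that bind the extracellular matrix were followed in macrophages of 4T1 tumours. The genes were chosen by name: Itga1, Itga2, Itga2b, Itga5, Itga6, Itgav, Itgb1, Itgb3, Itgb5 and Itgb8, whose products bind collagen, laminin, fibronectin or other ligands carrying the RGD motif, 10 of the 46603 genes in the deposited count table. 4T1 cells derive from a mouse mammary carcinoma and are grown as grafted tumours. Viable CD11B+ F4/80+ cells, the usual surface pair of mouse macrophages, were sorted from tumours 1, 2, 4, 5 and 6 into a PDPN+ fraction (podoplanin-positive, the submitters' PoEMs) and a PDPN- fraction (their non-PoEMs), and both fractions of each tumour gave 1 library, 10 in all. All 10 libraries share the 4T1 tumour and the CD11B and F4/80 gates, and the labels give no mouse strain, age or treatment. The labels number the tumours without saying whether they grew in separate mice, and p-values measure the spread between these tumours and libraries only. A value after ± beside a mean is the SD over the 5 libraries of a fraction.

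An integrin is a membrane receptor made of an alpha and a beta chain, which together set the ligand. The beta 1 chain pairs with many alpha chains, among them alpha 1 and alpha 2 for collagen, alpha 6 for laminin and alpha 5 for fibronectin, while alpha V pairs with beta 1, beta 3, beta 5 or beta 8 to bind RGD ligands such as vitronectin, osteopontin and latent TGF-beta. Integrin alpha IIb, encoded by Itga2b, pairs with beta 3 as the fibrinogen receptor of platelets, and it is also found on megakaryocytes, mast cells and early blood progenitors. In macrophages these receptors anchor the cell to matrix and serve uptake of matrix and of dying cells.

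Sequencing gave 12597829 to 15406722 counts per library, so 1 count equalled 0.0652 to 0.0782 CPM (counts per 1000000 counts, TMM-scaled). Sorting held in the RNA: Pdpn, the sorted marker, averaged 214.5 ± 22.9 CPM in the positive fraction against 19.3 ± 7.33 CPM in the negative one. The macrophage label held too, with all 10 macrophage markers detected and a summed level of 26182 to 30130 CPM in PDPN-positive and 28718 to 33568 CPM in PDPN-negative libraries. Markers of other cells differed between the fractions. Fibroblast markers were higher in PDPN-positive libraries for 10 of 14 tested genes (summed level 251.6 to 337.5 against 120.3 to 248.9 CPM). Mast cell and basophil markers were lower for 3 of 4 tested genes out of 14 (6.19 to 10.97 against 17.9 to 49.4 CPM), eosinophil markers for 4 of 5 tested out of 9 (4.76 to 14.4 against 58.6 to 148.8 CPM) and neutrophil markers for 7 of 8 tested out of 10 (118.9 to 148.0 against 221.1 to 294.8 CPM). The filter on low counts stood at 0.725 CPM. Gata2, Il4 and Il5ra reached the test through the PDPN-negative group, with at most 0.155, 0.229 and 0.144 CPM in PDPN-positive libraries. Lum, Mfap5 and Loxl1 reached it through the PDPN-positive group, with at most 0.459, 0.360 and 0.658 CPM in PDPN-negative ones. Such genes could hardly be called the other way, so these counts are descriptions only.

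By their summed level, the 10 chains were nearly the same in both fractions, at 1505 to 1556 CPM in PDPN-positive and 1462 to 1617 CPM in PDPN-negative libraries. This sum, not scaled by gene length, is mostly Itgb1 (means 630.6 and 610.3 CPM, PDPN-positive first) and Itgb5 (491.7 and 489.7 CPM). It can hardly show changes of low chains such as Itga2 and Itga2b. Of the 10 genes, 9 passed the filter on low counts and were tested. Itga2 and Itga2b were lower in PDPN-positive libraries and none was higher (edgeR quasi-likelihood test over all 13595 tested genes, Benjamini-Hochberg adjusted p under 0.05). By the same rule 6.77% of all tested genes were lower and 6.83% higher, 13.6% in all. No integrin of the group was higher at an unadjusted p under 0.05. DESeq2 gave the same counts, 2 lower and 0 higher, where it called 7.4% of all genes lower and 6.77% higher, 14.2% in all. With the tumour as a block, which compares the fractions within each tumour, Itga6 was also lower, so that 3 of 9 passed where 14.3% of all tested genes were lower and 13.8% higher, 28.2% in all. DESeq2 with the block also called Itga6 (log2 fold change -0.28, adjusted p = 0.000563), in a fit that called 8.7% of genes lower and 7.45% higher, 16.2% in all. The median of the 9 log2 fold changes was 0.01, as was the median over all tested genes. Itga2 reached the test through the PDPN-negative group, in which all 5 libraries met the minimum against 3 PDPN-positive libraries, so these counts describe the group and support nothing further. Fewer cells of a type and less RNA per cell cannot be told apart in these bulk libraries.

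**Figure D1:**
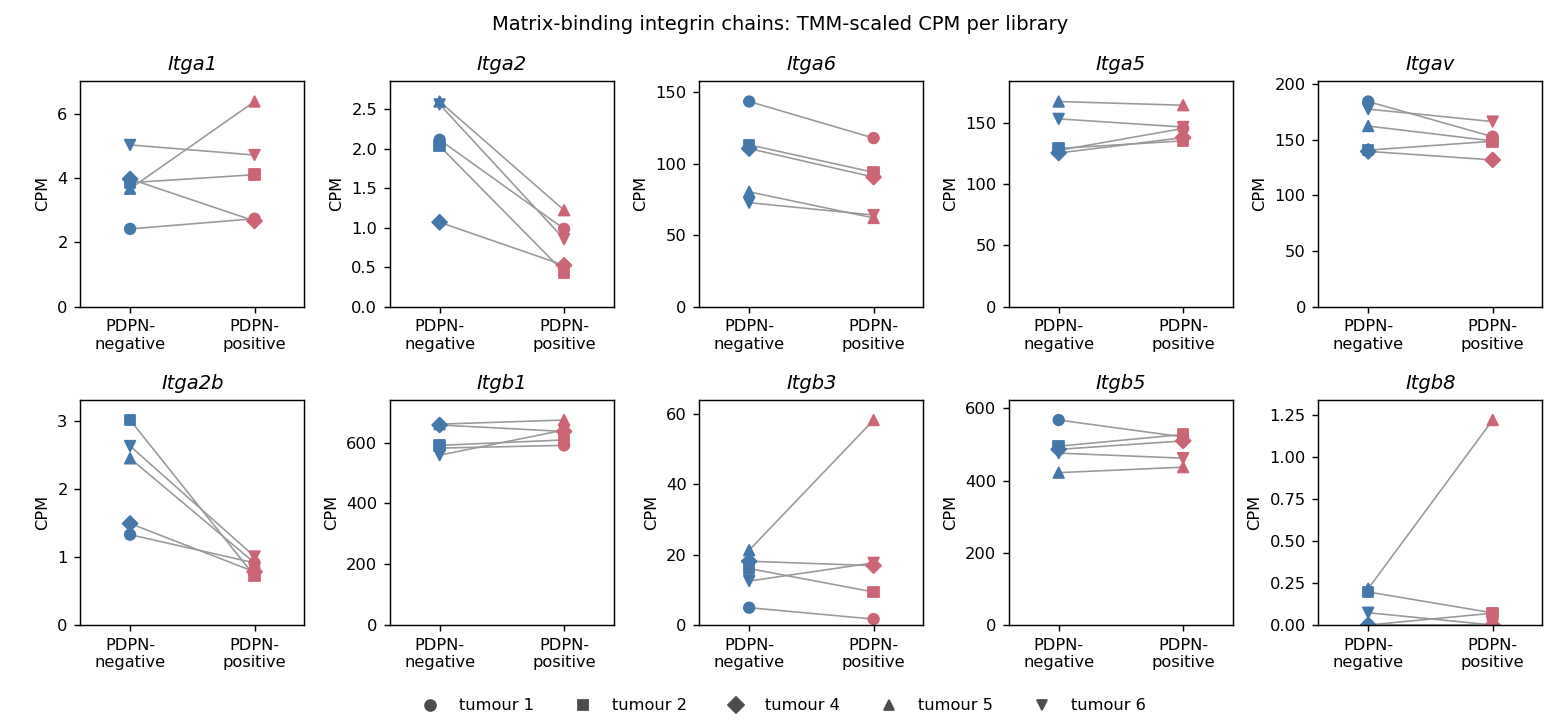
TMM-scaled CPM (vertical axes, each from 0) of the 10 integrin genes in PDPN-negative (blue) and PDPN-positive (red) libraries, with lines joining the fractions of a tumour. Itga2, Itga2b and Itga6 descend in 5 of 5 tumours, and PDPN-positive tumour 5 stands at 58.3 CPM for Itgb3.

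The lower pair are shown with their promoters, since both fell by a like amount and lie on different chromosomes. Itga2 (ENSMUSG00000015533) lies on chromosome 13 at 114833081 to 114932100 of GRCm38 on the minus strand, 20995 bases from Itga1. Itga2b (ENSMUSG00000034664) lies on chromosome 11 at 102453297 to 102470122, minus strand, and both are protein-coding. The windows hold 250 bases before and 50 bases after the start of a RefSeq transcript (GRCm38.p6), at chr13:114932051-114932350 and chr11:102469834-102470133, both on the minus strand and written 5′ to 3′. They are not placed alike. Most of the Itga2 window lies upstream of the gene end at 114932100. Most of the Itga2b window lies inside the annotated gene, whose 5′ end is at 102470122. Capitals mark every match on either strand to GATAA (GATA factors), GGAAG (ETS factors), TGTGGT (RUNX factors), TGANTCA (AP-1) or GGGCGG (SP1), or to the NF-kB consensus.
Itga2: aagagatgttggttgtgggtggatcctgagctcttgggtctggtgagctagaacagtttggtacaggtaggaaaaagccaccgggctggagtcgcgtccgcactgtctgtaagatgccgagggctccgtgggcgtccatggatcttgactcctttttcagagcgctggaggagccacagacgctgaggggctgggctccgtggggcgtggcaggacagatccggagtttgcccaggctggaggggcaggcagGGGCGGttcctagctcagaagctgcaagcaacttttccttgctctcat
Itga2b: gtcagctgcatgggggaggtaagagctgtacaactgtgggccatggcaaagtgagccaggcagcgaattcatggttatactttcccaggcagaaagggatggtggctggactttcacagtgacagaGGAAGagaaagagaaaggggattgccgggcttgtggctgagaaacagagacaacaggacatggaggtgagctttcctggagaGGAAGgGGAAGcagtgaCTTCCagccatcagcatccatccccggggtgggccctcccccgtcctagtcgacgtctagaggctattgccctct
In the Itga2b window GGAAG was found 4 times, starting at bases 127, 209 and 215 and, on the other strand, at base 226, counted from the 5′ end. The Itga2 window held none of these, and 1 GGGCGG starting at base 253. Neither window held any of the other 4 motifs, so the windows had no motif of the search in common. Over 32544 distinct promoter windows of the same length, GGAAG was present in 71.3%, GGGCGG in 35.9%, GATAA in 25.3%, TGTGGT in 16.7%, TGANTCA in 7.79% and the NF-kB consensus in 1.47%. A match is a stretch of letters and no measured site. RefSeq windows were matched for 8 of the 10 genes, all but Itga6 and Itgb3.

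Among the collagen-binding alpha chains, Itga2 was lower in PDPN-positive libraries and its neighbour Itga1 did not pass the test. Itga2 encodes integrin alpha 2, which with beta 1 forms a collagen receptor of platelets, epithelia and some leukocytes. In tumours 1, 2, 4, 5 and 6 it had 27, 31, 15, 36 and 35 counts in the PDPN-negative libraries and 14, 6, 8, 16 and 11 in the PDPN-positive ones. As CPM these were 2.11, 2.03, 1.07, 2.60 and 2.56 against 0.984, 0.433, 0.521, 1.22 and 0.853. The PDPN-positive library was the lower of the pair in 5 of 5 tumours, although PDPN-negative tumour 4, at 1.07 CPM, lay below PDPN-positive tumour 5, so the groups overlap. Itga2 averaged 0.802 ± 0.326 CPM in PDPN-positive and 2.07 ± 0.618 CPM in PDPN-negative libraries, a 2.58-fold lower fitted level. Its log2 fold change was -1.37 (SE 0.31, 95% interval -2.05 to -0.69, edgeR adjusted p = 0.0129). Leaving out both libraries of tumour 2 ended the call without the block (-1.22, edgeR adjusted p = 0.0565), whereas with the block it was called on leaving out any of the 5 tumours.

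Itga1 encodes integrin alpha 1, the collagen receptor chain better known from mesenchymal cells and tissue-resident lymphocytes. It had 31, 59, 56, 51 and 69 counts in the PDPN-negative and 39, 57, 41, 84 and 61 in the PDPN-positive libraries of tumours 1, 2, 4, 5 and 6. The highest library was PDPN-positive tumour 5 and the lowest PDPN-negative tumour 1, and the groups overlapped, with the PDPN-positive library higher in 3 of 5 tumours. Means were 4.13 ± 1.55 and 3.80 ± 0.935 CPM (PDPN-positive first), and the log2 fold change was 0.11 with a 95% interval of -0.44 to 0.66 (edgeR adjusted p = 0.819). Without PDPN-positive tumour 5 it was -0.10. Exons of Itga1 share 685 bases with the gene model Gm49395 on the same strand in GENCODE M21, so reads there could come from either. Gm49395 is not a row of the count table. Itgav shares 634 exon bases with an opposite-strand gene that had 0 counts, so Itga1 is not the only member with such a limit.

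The RGD-binding alpha chains differed widely in level, and Itga2b was the chain that changed. Itga2b had 17, 46, 21, 34 and 36 counts in the PDPN-negative and 13, 10, 12, 12 and 13 in the PDPN-positive libraries of tumours 1, 2, 4, 5 and 6. This corresponds to 1.33, 3.01, 1.49, 2.45 and 2.63 CPM against 0.913, 0.722, 0.782, 0.914 and 1.01 CPM. The groups did not overlap: the highest PDPN-positive library, tumour 6, lay below the lowest PDPN-negative one, tumour 1. No share of all tested genes without overlap is given here, so this describes Itga2b alone. The coefficient of variation was 13.2% among PDPN-positive and 33.7% among PDPN-negative libraries. At 10 to 13 counts per PDPN-positive library, counting error alone would exceed 13.2%, so no tighter spread can be read from this value. The means of 0.868 ± 0.115 and 2.18 ± 0.737 CPM gave a log2 fold change of -1.33 (SE 0.26, 95% interval -1.90 to -0.76, edgeR adjusted p = 0.00561), a 2.52-fold lower level. This call was made on leaving out any library or tumour, the adjusted p reaching at most 0.0384.

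Markers of other cells were measured beside Itga2 and Itga2b because both genes are used by blood lineages other than macrophages. The mast cell and basophil sum was below its partner in the PDPN-positive library of each tumour. In PDPN-negative tumours 1, 2, 4, 5 and 6 its summed level was 17.9, 49.4, 28.6, 40.7 and 40.3 CPM, and in the PDPN-positive ones 7.31, 9.32, 6.19, 10.97 and 7.91 CPM. Tumour 2 had the highest and tumour 1 the lowest PDPN-negative value of both this sum and Itga2b. This was not particular to these markers. The neutrophil sum (294.8 and 221.1 CPM) and the T and NK cell sum (22.1 and 2.74 CPM) had the same extremes. The eosinophil sum was also highest in tumour 2 (148.8 CPM) but lowest in tumour 4 (58.6 CPM). For Itga2 the PDPN-negative order differed, with the lowest value in tumour 4. Gata2, a transcription factor of mast cells and early progenitors, fell from 2.17 ± 0.965 to 0.132 ± 0.0376 CPM, and Hdc, the histamine-forming enzyme, from 22.8 ± 7.24 to 5.07 ± 1.34 CPM. Their edgeR adjusted p-values were 0.000139 and 0.000432. Gata2 reached the test through the PDPN-negative group, so its p-value supports nothing further. Hdc was the largest part of the sum, at 11.5 to 29.4 CPM in PDPN-negative and 3.44 to 7.09 CPM in PDPN-positive libraries. The basophil protease Mcpt8 had 95 counts in all PDPN-negative and 7 in all PDPN-positive libraries, while the high-affinity IgE receptor gene Fcer1a had 8 and 0. Of further genes of the list, Mcpt4 had 17 and 2 counts and Cpa3 10 and 4. Others differed little: Cma1 had 9 and 7, Tpsb2 12 and 9 and Tpsab1 25 and 16. Kit did not pass the test without the block (edgeR adjusted p = 0.163) but was lower with it (edgeR adjusted p = 0.0116). With the block all 4 tested genes of the list were lower, where 14.3% of all tested genes were. The eosinophil sum was lower in each tumour as well. The part of these cells in the fall of Itga2 and Itga2b was not tested. Among platelet and megakaryocyte markers, Gp1bb, Gp6 and Gp9 had 0 counts in all 10 libraries and Gp1ba had 6. Pf4, a platelet chemokine that macrophages also make, went the other way, rising from 105.6 ± 26.9 to 252.7 ± 70.2 CPM with an edgeR adjusted p = 0.00664. So did Ppbp, a further platelet chemokine gene (7.63 ± 3.32 against 1.37 ± 0.700 CPM, adjusted p = 0.00113). The third tested marker of that list of 11, Treml1, did not pass the test.

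**Figure D2:**
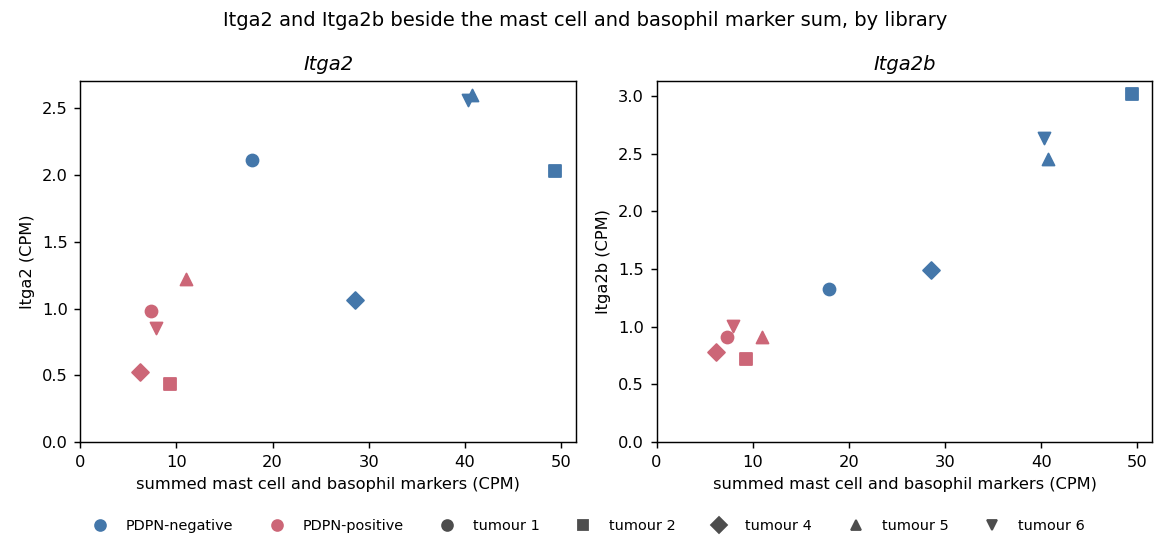
Itga2 (left) and Itga2b (right) in CPM on the vertical axis against the summed mast cell and basophil markers in CPM on the horizontal axis, 1 point per library, coloured by fraction and shaped by tumour. PDPN-positive libraries lie at marker sums of 6.19 to 10.97 CPM and PDPN-negative ones at 17.9 to 49.4 CPM.

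The genes that followed Itga2 and Itga2b most closely across the 10 libraries were listed by correlation. By Pearson correlation of log2 CPM with each of 12139 tested genes of mean log2 CPM 1 or more, Itga2 was nearest to Nfkb2 (r = 0.98), which encodes an NF-kB subunit, Kdm6b (r = 0.96), a histone H3 demethylase gene, and Zcchc2 (r = 0.95). Itga2b was nearest to Fam101b (r = 0.97), Arpc5 (r = 0.96), a subunit of the actin-nucleating Arp2/3 complex, and Pcp4l1 (r = 0.96). These are descriptions over 10 points that share the difference between the fractions: all 6 genes were themselves lower in PDPN-positive libraries, by between -0.22 for Arpc5 and -1.65 for Fam101b on the log2 scale.

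Itga5 and Itgav, the broadly expressed fibronectin and RGD receptor chains, showed small differences with narrow intervals. Itga5 measured 128, 129, 126, 168 and 154 CPM in the PDPN-negative and 146, 136, 138, 165 and 147 CPM in the PDPN-positive libraries of tumours 1, 2, 4, 5 and 6. Tumour 5 was highest in both fractions, the groups overlapped, and the PDPN-positive library was higher in 3 of 5 tumours. The log2 fold change was 0.05, with a 95% interval of -0.14 to 0.25 (edgeR adjusted p = 0.737). Itgav measured 184.5, 140.8, 139.6, 162.4 and 177.7 CPM against 152.8, 148.8, 132.0, 149.0 and 166.5 CPM. It was lower in the PDPN-positive library in 4 of 5 tumours, tumour 2 being the exception, and the groups overlapped. Its log2 fold change of -0.10 (95% interval -0.30 to 0.09, edgeR adjusted p = 0.491) did not pass the test with the block either (-0.10, adjusted p = 0.178, 95% interval -0.21 to 0.01).

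The laminin-binding chain Itga6, which with beta 1 or beta 4 attaches cells to basement membranes, differed more between tumours than between fractions. PDPN-negative libraries of tumours 1, 2, 4, 5 and 6 measured 143.4, 113.1, 110.5, 80.2 and 72.6 CPM, and the PDPN-positive ones 117.8, 93.9, 90.5, 61.9 and 64.0 CPM. Tumour 1 was highest and tumours 5 and 6 lowest in both fractions, so the groups overlapped widely, yet the PDPN-positive library was the lower in 5 of 5 tumours. Without the block the log2 fold change was -0.28 (SE 0.23, 95% interval -0.78 to 0.23, edgeR adjusted p = 0.470). With the tumour as a block it was -0.28 (SE 0.05, 95% interval -0.38 to -0.18, edgeR adjusted p = 0.000409), a 1.21-fold lower level. The log2 ratios within tumours were -0.28, -0.27, -0.29, -0.37 and -0.18. Their SD of 0.07 was exceeded by that of 92.2% of all tested genes, a share over genes of all levels and not matched for abundance. By the same measure the share was 82.7% for Itgb1, 82.9% for Itgb5, 75.2% for Itga5 and 67.0% for Itgav. With the block, the call was made on leaving out any of the 5 tumours (adjusted p at most 0.0035). Itga6 is also an epithelial gene, and none of the 8 tested epithelial and tumour cell markers out of 11 passed without the block (0 at adjusted p under 0.05 with edgeR or DESeq2, 2 lower at an unadjusted p under 0.05). Their median log2 fold change was -0.25. With the block 1 was higher, Cdh1, and 2 were lower, Epcam and Krt8. The sum of all 11 was higher in the PDPN-positive member of each of the 5 pairs (96.1 to 258.6 against 80.2 to 210.7 CPM), but this rested on Cdh1. The other 10 markers summed to 24.5 to 46.1 CPM against 38.5 to 53.7 CPM and were lower in 4 of 5 tumours, a sum taken after the values were seen. Their part in the Itga6 difference was not tested.

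**Figure D3:**
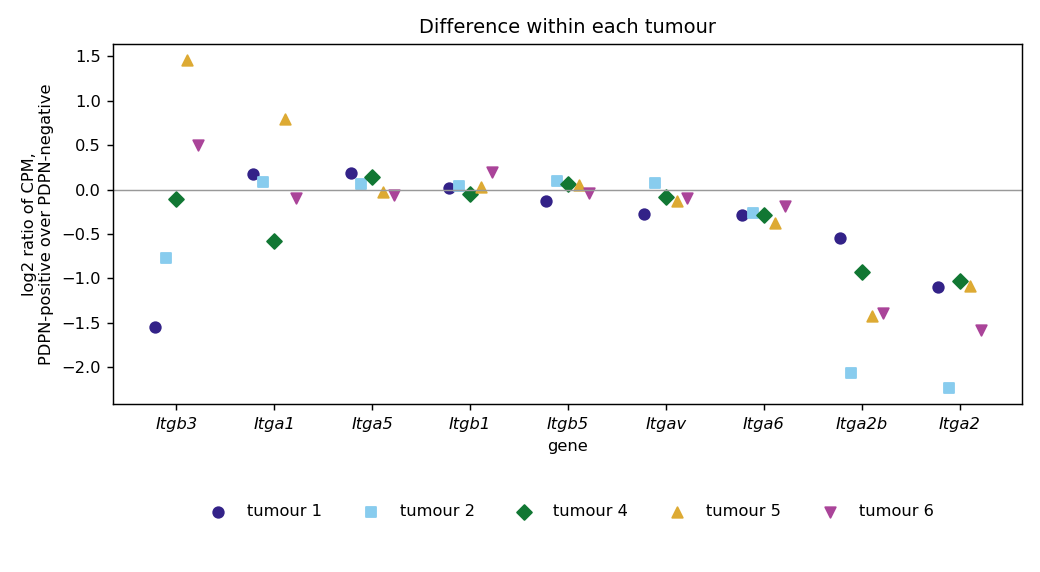
Log2 ratio of CPM, PDPN-positive over PDPN-negative, within each of 5 tumours (vertical axis) for the 9 tested genes (horizontal axis, in order of fitted fold change). Itga6 is packed between -0.37 and -0.18, whereas Itgb3 runs from -1.55 in tumour 1 to 1.45 in tumour 5.

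The beta chains Itgb1 and Itgb5 were abundant, with small differences between the fractions. Itgb1, the shared partner of most matrix-binding alpha chains, measured 582.2, 591.2, 658.2, 661.0 and 559.0 CPM in PDPN-negative and 591.1, 609.1, 637.0, 674.5 and 641.5 CPM in PDPN-positive libraries of tumours 1, 2, 4, 5 and 6. The groups overlapped, and the 95% interval of the log2 fold change ran from -0.10 to 0.19. Itgb5, which pairs with alpha V as a vitronectin receptor, measured 567.9, 495.4, 486.6, 422.1 and 476.3 CPM against 521.1, 527.9, 510.1, 437.4 and 462.2 CPM. Here tumour 5 was lowest in both fractions, the reverse of its place for Itgb1. The log2 fold change of Itgb5 was 0.01 (95% interval -0.17 to 0.19, edgeR adjusted p = 0.972), and its sign turned in 12 of 26 alternative analyses.

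Itgb3, the beta chain of the alpha V beta 3 and platelet receptors, had the least settled difference of the tested genes. It had 63, 245, 255, 295 and 171 counts in the PDPN-negative and 24, 130, 259, 765 and 228 in the PDPN-positive libraries of tumours 1, 2, 4, 5 and 6, or 4.93, 16.1, 18.1, 21.3 and 12.5 CPM against 1.69, 9.39, 16.9, 58.3 and 17.7 CPM. Tumour 1 was lowest and tumour 5 highest in both fractions, with a 34.6-fold range among PDPN-positive and 4.32-fold among PDPN-negative libraries. The PDPN-positive library was lower in tumours 1, 2 and 4 and higher in tumours 5 and 6. The means of 20.8 ± 21.9 and 14.6 ± 6.27 CPM gave a fitted value of 0.50 on the log2 scale (SE 0.72, edgeR adjusted p = 0.701), and the 95% interval of -1.13 to 2.13 covers changes of over 2-fold either way. Without PDPN-positive tumour 5 the value was -0.36. The SD of its log2 ratios within tumours, 1.13 with a prior count of 2, was exceeded by 0.177% of all tested genes. PDPN-positive tumour 5 also had the highest level of Itga1, Itgb1 and Itgb8 among the 10 libraries.

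Itgb8, whose product with alpha V releases TGF-beta from its latent complex, was near the limit of detection. It had 0, 3, 0, 3 and 1 counts in the PDPN-negative and 1, 1, 0, 16 and 0 in the PDPN-positive libraries. It lay below the filter, and 16 of its 18 PDPN-positive counts came from tumour 5. Libraries with 0 counts allow up to 3 counts, between 0.196 and 0.235 CPM. An exact permutation test of CPM gave a two-sided p = 0.897 for 5 against 5 libraries. The smallest p this design allows is 0.00794, so adjustment over the 10378 genes below the filter (adjusted p = 1) could hardly give a call and says nothing further. With no filter, edgeR gave a log2 fold change of 1.34 (SE 1.22, adjusted p = 0.551).

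**Figure D4:**
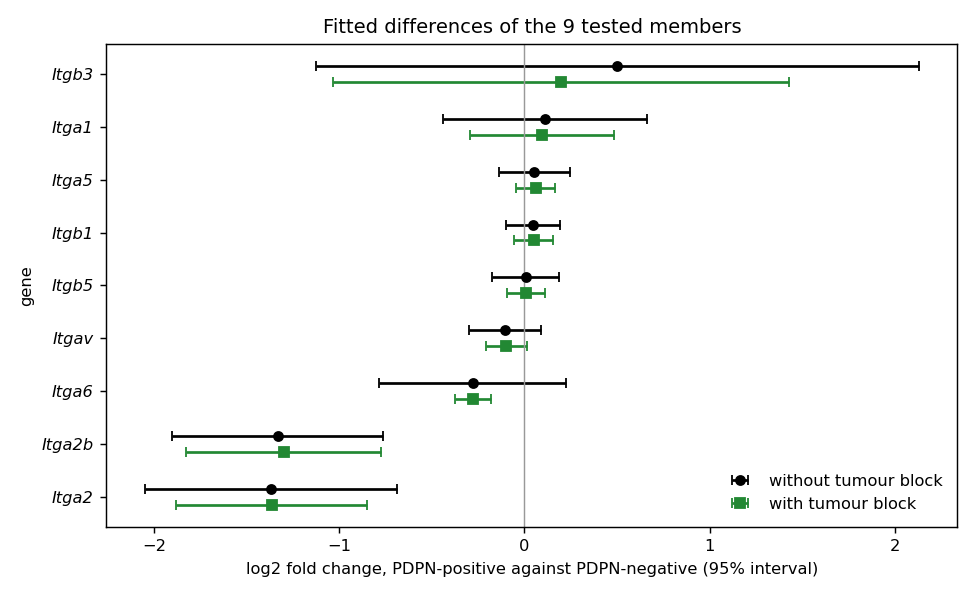
Fitted log2 fold change of PDPN-positive against PDPN-negative libraries (horizontal axis, points) with its 95% interval (bars) for the 9 tested genes, without (circles) and with (squares) the tumour as a block. For Itga6 the interval runs from -0.78 to 0.23 without the block and from -0.38 to -0.18 with it.

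Levels of different chains were compared per kilobase of exon (CPM per kb, GENCODE M21 exon union), as longer transcripts give more reads. Over the 10 libraries Itgb1 averaged 152.0 CPM per kb (range 137.0 to 165.3) and Itgb5 138.1 (118.8 to 159.8), and these neighbours overlapped. Itga5 followed at 29.1 (25.5 to 34.04), clear of both neighbours. Itgav at 14.5 (12.3 to 17.2) overlapped with Itga6 at 10.5 (6.86 to 15.9), which overlapped in turn with Itgb3 at 2.996 (0.286 to 9.88). Itga2b, Itga1 and Itga2 formed a low set at 0.280, 0.213 and 0.202 CPM per kb, whose ranges overlapped with each other. Their order differed between the fractions: Itga2b, Itga2 and Itga1 measured 0.400, 0.291 and 0.204 CPM per kb in PDPN-negative libraries, but Itga1 was the highest at 0.222 in PDPN-positive ones, ahead of Itga2b at 0.159 and Itga2 at 0.112. The range of Itgb3 reached down into that of Itga2b, and Itgb8, last at 0.0167 (0 to 0.110), overlapped with Itga2. The order of the means over all libraries held with the longest transcript as length, but there Itgav and Itga6 were level, at 22.0 CPM per kb each.

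**Figure D5:**
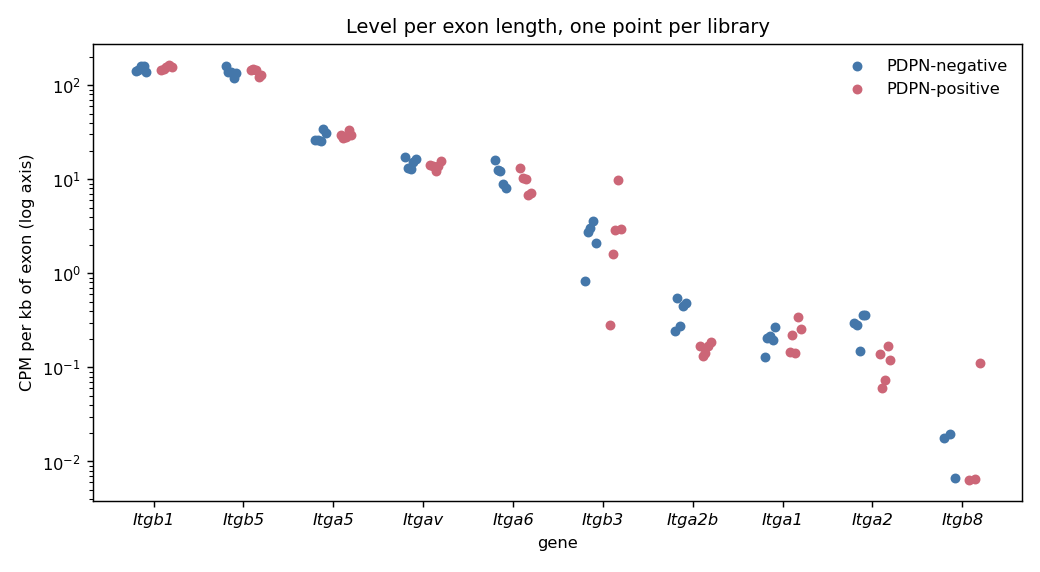
CPM per kilobase of exon on a log axis for each of the 10 genes, 1 point per library, PDPN-negative in blue and PDPN-positive in red. Libraries at 0 counts of Itgb8 cannot be drawn on this axis. Itgb1 and Itgb5 lie at 118.8 CPM per kb and above, and no alpha chain exceeds 34.04.

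By this measure Itga5 made up 51.0% ± 5.46 of the summed level of the 6 alpha chains in the PDPN-negative fraction and 55.4% ± 3.64 in the other. Itgav gave 26.7% ± 2.06 and 26.0% ± 2.00, and Itga6 20.7% ± 5.67 and 17.7% ± 4.49. These shares depend on the length used. With the longest transcript, Itga5 gave 40.0% and 44.3%, Itgav 28.4% in each and Itga6 29.999% and 26.3%, so that Itga6 stood above Itgav in the PDPN-negative fraction. Itga1, Itga2 and Itga2b together were the small remainder, each at most 1.04% in any library. Of the 4 beta chains, Itgb1 held 51.6% ± 3.76 and 52.1% ± 2.57 and Itgb5 47.5% ± 4.11 and 46.7% ± 3.71. Itgb3 was at most 1.27% in a PDPN-negative library and ran from 0.0979% to 3.31% in PDPN-positive ones. The ranges of both fractions overlapped for every chain but Itga2b (0.408% to 1.04% against 0.254% to 0.349%). How many of all tested genes lack overlap is not given, so nothing further can be read from this. These shares are descriptions of RNA, with no test.

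Other genes of integrin adhesion were read from lists by role. Beside each list stand the shares of all tested genes, 6.83% higher and 6.77% lower without the block and 13.8% and 14.3% with it. Of 5 tested among 9 further matrix-binding chains, none passed the edgeR test without the block, while at an unadjusted p under 0.05, and with DESeq2, 2 were lower (Itga3 and Itga4). With the block Itga4, a fibronectin and VCAM1 receptor chain, and Itga3, a laminin receptor chain, were lower (edgeR adjusted p = 0.000128 and 0.000476), and Itga9, a tenascin C and osteopontin receptor chain, was higher (0.0394). Itga4 measured 161.4 ± 30.9 CPM against 214.8 ± 28.0 in PDPN-negative libraries and Itga3 13.1 ± 3.41 against 18.7 ± 2.94. Itga11, a collagen-binding chain of fibroblasts, had 25 counts in all PDPN-positive libraries and 1 in all PDPN-negative ones. Of the leukocyte integrin chains 3 of 6 tested were higher, Itgb2, Itgam and Itgal, and none lower (edgeR; also 0 lower at an unadjusted p under 0.05 and with DESeq2), a contrast with the matrix-binding chains that was not tested as a difference.

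Many genes for the ligands of these receptors were higher in PDPN-positive libraries. Of 10 collagen genes 8 were higher (median log2 fold change 3.51). The 3 with the lowest p, Col1a2, Col5a2 and Col6a3, rose 16.4-fold, 15.05-fold and 13.8-fold. Of 8 tested laminin genes Lamc1, Lama4 and Lamb2 were higher and Lama5 lower (median -0.15), and with the block 3 were lower. Lamc1, the gamma chain of most laminins, averaged 127.0 ± 7.85 CPM and 94.0 ± 8.35 CPM, PDPN-positive first, with an edgeR adjusted p = 0.00131. Of 16 tested RGD and fibrinogen ligands and latent TGF-beta genes 8 were higher and 1 lower (median 0.77), against 12 and 2 with the block. Fn1, the fibronectin gene, ran from 11113 to 17284 CPM in PDPN-positive and from 5309 to 8852 CPM in PDPN-negative libraries (log2 fold change 1.01, edgeR adjusted p = 0.00153). Spp1, which encodes osteopontin, ran from 2761 to 4799 against 703 to 2551 CPM (1.26, edgeR adjusted p = 0.0304). Tnc, Fbn1 and Postn rose 9.12-fold, 5.17-fold and 7.37-fold. Nrros, which tethers latent TGF-beta to the surface of myeloid cells, was the member that fell (-0.42, adjusted p = 0.0212), and Tgfb1 differed by 0.09 (adjusted p = 0.638). The median over all tested genes was 0.01, and the fibroblast markers given above were higher in the same libraries. Their part in the ligand differences was not tested.

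Inside the cell, 5 of 31 tested genes for integrin activation and adhesion adaptors were higher and 2 lower (median -0.01). By the same rule 6.83% of all tested genes were higher and 6.77% lower. The higher ones were Parvb, Parvg, Fermt2, Actn1 and Actn4, which encode parvins, a kindlin and alpha-actinins, proteins that join integrin tails to actin. Parvb measured 106.3 ± 5.44 against 87.5 ± 6.59 CPM and Actn4 296.7 ± 16.2 against 247.7 ± 14.8 CPM, at edgeR adjusted p-values of 0.0114 and 0.0150. The lower ones were Pxn, the focal adhesion scaffold paxillin, at 369.4 ± 21.8 against 479.3 ± 49.6 CPM (adjusted p = 0.00637), and Rap1a, a small GTPase of integrin activation. With the block 7 were higher and 8 lower, where 13.8% of all tested genes were higher and 14.3% lower. Of 14 tested non-integrin matrix receptors 5 were higher and none lower: Mrc2, an endocytic collagen receptor, Bsg, Cd36, Dag1 and Sdc2. Mrc2 rose 14.6-fold and Cd36, a thrombospondin and lipid receptor, 2.41-fold (edgeR adjusted p = 1.67e-05 and 0.00281), while 1 was lower at an unadjusted p under 0.05 and none with DESeq2. Mrc2 had 12 counts in all PDPN-negative and 182 in all PDPN-positive libraries. At 0.0731 to 0.262 CPM in PDPN-negative libraries, it reached the test through the PDPN-positive group. Its fold rests on a level near the limit of detection. With the block 2 were lower, Lair1, an inhibitory collagen receptor, and Cd47, the thrombospondin receptor and ligand of SIRP alpha (edgeR adjusted p = 0.0232 and 0.0182).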

How the data were processed

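RNA of 10 libraries was analysed. Per the labels' protocols, cells were sorted from digested tumours and their RNA was amplified by SMART-Seq. The authors deposited raw counts per gene. These are reads without molecular identifiers, so floors cover counting error only. The submitters' processing notes name featureCounts 1.5.3, STAR 2.5.2b, Bowtie2 2.3.3.1 and cutadapt 1.15. Genome build, annotation, strand and multi-mapping settings: not given in the sources used here. Antisense or overlapping genes are therefore uncertain; overlap was looked up for the 10 members, and shared exon bases were found for Itga1 and, with a gene without counts, Itgav. Positions and exon lengths came from GENCODE M21 (GRCm38), which matched 46091 of 46603 identifiers, and promoter windows from RefSeq (GRCm38.p6). Every row named a gene.

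The test was edgeR 4.0.16 (R 4.3.3): filterByExpr by group (minimum count 10, total 15; 13595 genes kept), TMM, and a robust quasi-likelihood fit on group alone. SE is the absolute log2 fold change over the square root of F, and 95% intervals use the fit's degrees of freedom. The test was checked on simulated data. Same-numbered libraries come from 1 tumour, and their deviations from the group means correlated at r = 0.24 to 0.50 across 13595 genes, so the tumour was used as a block in a further fit. Alternatives were RLE size factors, library size alone, no filter, DESeq2 1.42.0, and each library or tumour left out. The gene below the filter was compared by an exact permutation test. Members and lists were chosen with earlier results of these data known. Genes named were all 10 members, the 3 list genes (2 markers) of lowest p, the 3 genes most like each called member, and Pdpn, Itgam and Adgre1; other list genes and Gm49395 were chosen after their values were seen. Lists are described by counts and medians, with no list test. 1 neutrophil marker was higher. Of the other marker lists, without the block, lower genes numbered 2 of 7 for monocytes, 2 of 5 for dendritic cells and 1 of 10 for macrophages. Of 4 endothelial, 2 pericyte or 2 T and NK cell genes none passed (edgeR without the block). At an unadjusted p under 0.05 these numbered 0, 1 and 1, and with DESeq2 0 of each. With the block 13.8% of all tested genes were higher and 14.3% lower. There 4 monocyte, 3 dendritic cell and 4 macrophage genes were lower and 2 macrophage genes higher. Pecam1 was higher, and Rgs5 and Cd2 lower (edgeR adjusted p = 0.000147, 0.0358 and 0.0115). Fibroblast genes numbered 12 higher, and mast cell and basophil, eosinophil and neutrophil genes 4, 5 and 7 lower.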

Additional observations from a re-analysis of the deposited data

Results flagged for a closer look

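Within each fraction, the distance of the highest or lowest library from the rest was examined for the 10 genes, 20 groups of 5 libraries in all, of which chance flags about 1 in 20. In 2 of them the highest library stood apart, by more than 0.71 of the group's range, and both were PDPN-positive tumour 5. Itgb3 measured 58.3 CPM there and 17.7 CPM in the next library. Itgb8 measured 1.22 CPM there, from 16 counts, and 0.0722 CPM in the next library.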

How the results depend on the processing

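Across the 26 alternative analyses Itga2, Itga2b, Itga5, Itga6, Itgav and Itgb1 kept their sign. The number of integrin genes called lower was 2 with a single library left out, 1 to 2 with a tumour left out, and 3 with the replicate block, also with any tumour left out; 0 were higher in each. With the replicate block the counts over all genes were 1880 higher and 1950 lower, and with DESeq2 and the block 1399 lower. Leaving out a library gave 617 to 1049 higher and 577 to 1026 lower, leaving out a tumour 437 to 876 and 482 to 885, and with the block 1360 to 1925 and 1380 to 2016. The block changed 1 call among the 9 genes, that of Itga6; the fit removes the difference between tumours by construction. Itgb3 was -0.0790 with DESeq2 and the block, and ran from -0.36 to 0.80 with a library, from -0.19 to 0.72 with a tumour and, blocked, from -0.28 to 0.43 with a tumour left out. In the same 3 settings Itga1 ran from -0.10 to 0.23, -0.11 to 0.25 and -0.11 to 0.24, and Itgb5 from -0.0432 to 0.0650, -0.0168 to 0.0395 and -0.0127 to 0.0377. The CPM difference of Itgb8 ran from -0.0616 to 0.243 and from -0.0318 to 0.250, negative without PDPN-positive tumour 5. With the longest transcript as length, the mean share of Itgav among alpha chains was 28.4% in place of 26.4% (Itga5 and Itga6 moved more, as given above); with a library left out it was 26.0% to 26.6%, and that of Itgb1 among beta chains 51.3% to 52.4%. RLE moved the median of all genes by -0.01 and library size alone by 0.01 on the log2 scale. Depth limits Itga2, Itga2b, Itga1 and Itgb8, with 199, 214, 548 and 25 counts over all libraries.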
